A study of Mus musculus with 38 samples.

Results

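Versican (Vcan), 8 small leucine-rich proteoglycans (SLRPs; Bgn, Dcn, Lum, Fmod, Ogn, Aspn, Prelp and Podn) and hyaluronan synthase 2 (Has2) were followed in 2 mouse models of ovarian cancer before and after chemotherapy. The 10 genes were chosen by symbol, as matrix proteoglycans of stroma and the enzyme that makes the polysaccharide versican binds, from 55487 genes in the expression tables. Bulk RNA-seq was made from omental tumors grown after intraperitoneal injection of 60577 cells into FVB mice or of HGS2 cells into C57BL/6J mice, all females aged 8 to 9 weeks at injection. Mice received 3 weekly intraperitoneal doses of carboplatin (20 mg/kg) with paclitaxel (10 mg/kg), or the vehicle of Kolliphor EL, ethanol, water and PBS, starting on day 21 after injection in 60577 and on day 49 in HGS2. Collection followed the final dose by 1 day at TP1, by 7 days at TP2 and by 21 days at TP3, and the comparisons ask how chemotherapy and the time since it altered the tumor matrix. In 60577 there were 3 control and 3 treated tumors at TP1, 3 and 4 at TP2, and 4 treated tumors at TP3. In HGS2 there were 3 and 3 at TP1, 4 and 3 at TP2, and 4 treated tumors at TP3, 1 of which (replicate 1) was left out of the fits because it does not appear in the tables of the study. The 2 lines were also sequenced from monoculture, with 2 libraries each.

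No tumor of TP3 received vehicle alone, so TP3 was compared with the TP2 controls, and treatment and time cannot be told apart there. The TP2 and TP3 comparisons of a model share those controls. Cell line, host strain and age of the tumor cannot be told apart between the models. Whether the replicates of 1 group shared a cage or a day of processing was not given, and p-values measure the spread between these tumors.

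Versican is a large chondroitin sulfate proteoglycan that binds hyaluronan through its N-terminal end and swells provisional matrix, as in wounds and tumor stroma. Hyaluronan is extruded at the cell surface by the synthases, of which Has2 is the one most used by fibroblasts. SLRPs are secreted proteins with a horseshoe of leucine-rich repeats that bind collagen fibrils and set their diameter and spacing, and several of them also bind transforming growth factor beta. Decorin, biglycan and asporin form class I of the family, lumican, fibromodulin and Prelp class II, osteoglycin (Ogn) class III and podocan (Podn) class V.

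Levels are given as CPM, the counts of a gene scaled to a common library size after TMM correction, which centers the bulk of genes at 0 change. Tumor libraries held 17839635 to 49299442 counts and cell line libraries 31633121 to 42461995, so that the spread between tumors, not counting error, limited most values. A gene was called when the adjusted p of the edgeR quasi-likelihood test was under 0.05 and the log2 fold change was beyond 1 in either direction. All 10 genes passed the filter on low counts among tumors, and 8 among cell lines (not Aspn or Prelp). Fibroblast markers (9 genes) were all detected in every tumor group and summed to 4078 to 21650 CPM in 60577 tumors and 21090 to 104500 CPM in HGS2 tumors. Tumor epithelial markers (6 genes) summed to 1531 to 2827 CPM in 60577 controls, 195 to 603 CPM in treated 60577 tumors and 15.1 to 724 CPM in HGS2 tumors. Pancreatic acinar markers reached 52710 CPM in HGS2 TP1 control replicate 3, 98870 CPM in TP2 control replicate 2 and 52020 CPM in TP3 treated replicate 2. Tumors over 1000 CPM in those markers, 6 in number, are called acinar-rich. The others were just over that limit: HGS2 TP1 treated replicate 1 (1281 CPM), HGS2 TP2 control replicate 4 (1218 CPM) and 60577 TP2 control replicate 1 (1267 CPM). A fit without acinar-rich tumors thus also has fewer TP2 controls in each model and fewer HGS2 TP3 tumors. Acinar RNA and the smaller groups cannot be told apart in it. In bulk tumors, fewer cells of a type and less RNA per cell cannot be told apart.

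**Figure D1:**
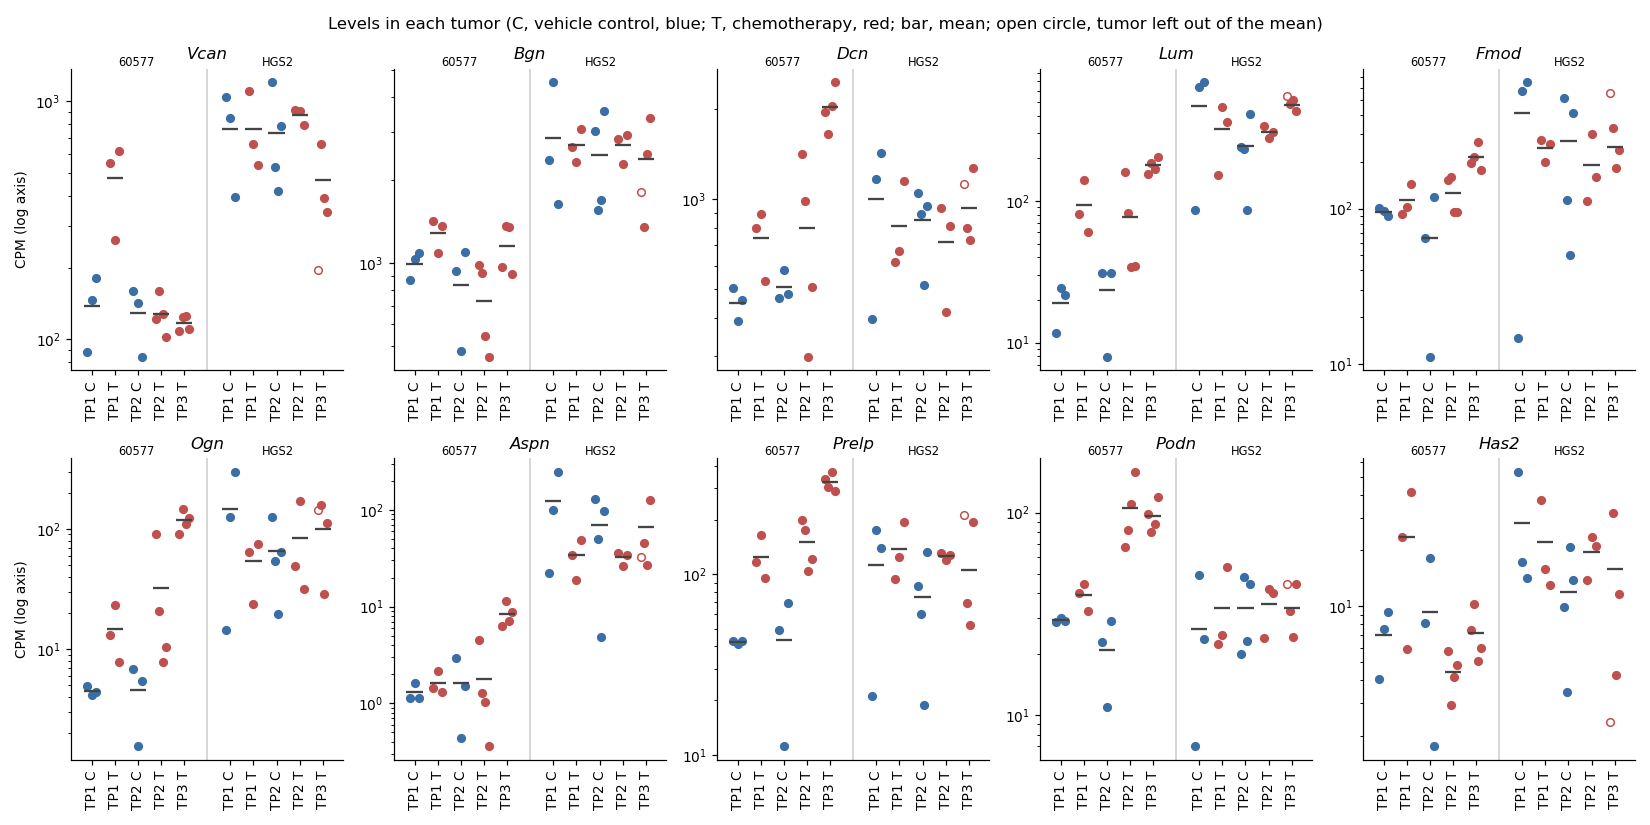
Level of each of the 10 genes in every tumor, in CPM on a log axis, with 60577 to the left and HGS2 to the right of each panel, controls in blue, treated tumors in red and a bar at the group mean. The open circle is the HGS2 TP3 treated tumor left out of the means; in 60577 the Vcan panel is highest at TP1 treated (262 to 617 CPM), and the Ogn panel at TP3 treated (91.7 to 146 CPM).

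At TP1, 60577 tumors held more Vcan, Lum and Prelp mRNA after chemotherapy than after vehicle. Vcan was 3.47-fold higher, Lum, a keratan sulfate SLRP that regulates collagen fibrils, 4.93-fold higher and Prelp, which anchors basement membranes to collagen, 2.99-fold higher. None of the 10 genes was called lower. The 3 called genes stood beside a background of 9.65% of 16241 genes called higher (15.6% called in either direction), and the median log2 fold change of the 10 genes was 1.15 against -0.00 for all genes.

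Vcan and Has2 had their highest 60577 group means here. Vcan measured 551, 262 and 617 CPM in the 3 treated tumors and 88.6, 146 and 180 CPM in the 3 controls. All treated tumors lay above all controls, with replicate 2 the lowest of the treated ones, and the log2 fold change was 1.79 (SE 0.32, edgeR adjusted p = 0.000655). Has2 measured 23.7, 5.90 and 41.3 CPM in treated tumors and 4.09, 7.51 and 9.31 CPM in controls. Treated replicate 2 again lay lowest and fell inside the control range, and the log2 fold change of 1.77 (SE 0.68) was not called (edgeR adjusted p = 0.0579). It was called by DESeq2 (adjusted p = 0.0183) and without that tumor (2.23, adjusted p = 0.0164) or TP2 control replicate 2 (adjusted p = 0.0331) or 3 (adjusted p = 0.0241), which share the fit.

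Lum measured 81.4, 140 and 60.3 CPM in treated tumors of TP1 and 11.7, 24.2 and 21.5 CPM in controls. The groups did not overlap, and the tumor that was lowest for Vcan, replicate 2, was the highest for Lum (log2 fold change 2.30, SE 0.59, edgeR adjusted p = 0.0076). Prelp measured 117, 164 and 95.1 CPM in treated tumors and 42.8, 40.9 and 42.7 CPM in controls. The controls lay close together, every treated tumor was above them, and the log2 fold change was 1.58 (SE 0.44, adjusted p = 0.0118), which missed the threshold when all 10 tumor groups were fitted together (adjusted p = 0.083). Dcn, Ogn and Podn also lay higher in every treated tumor than in every control, as 26.0% of genes did, but with log2 fold changes of 0.72 (SE 0.40), 1.72 (SE 0.76) and 0.41 (SE 0.31) they were not called. Ogn was called without TP2 treated replicate 1 (adjusted p = 0.0125). Bgn, Fmod and Aspn differed by 0.26 to 0.38.

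Treated replicate 2 of TP1 also stood apart in cell type markers. Its 6 adipocyte markers summed to 627 CPM, against 20.8 and 6.74 CPM in replicates 1 and 3 and 1.70 to 5.18 CPM in the controls, and 5 of the 6 markers were called higher in treated tumors. Its fibroblast markers summed to 13450 CPM, against 21650 and 18480 CPM in the other treated tumors and 4078 to 7082 CPM in controls, and 7 of 9 were called higher. Dpt, the matrix protein dermatopontin of fibroblasts, rose with a log2 fold change of 3.27. The share of counts from 7SL RNA, the RNA of the signal recognition particle, was 7.87% to 15.4% in the treated tumors and 3.59% to 4.91% in the controls, which do not overlap. With that share as a covariate, Dcn (1.12, adjusted p = 0.0191) and Ogn (2.30, adjusted p = 0.0239) were called as well, in a fit where share and treatment are hard to tell apart. The part of these cells in the Vcan, Lum and Prelp values was not tested.

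At TP2, 60577 tumors held more Lum, Ogn, Prelp and Podn mRNA after chemotherapy than after vehicle, and Vcan and Has2 were not called. Ogn, also named mimecan, was 7.1-fold higher and Podn, which binds type I collagen, 4.98-fold higher. Prelp was 3.48-fold higher and Lum 3.31-fold higher. These 4 called genes stood beside 14.8% of 16241 genes called higher (24.4% in either direction), and the median of the 10 genes was 0.80 against 0.03 for all genes.

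Podn measured 68.0, 81.9, 110 and 159 CPM in the 4 treated tumors and 22.9, 11.02 and 29.0 CPM in the 3 controls. Groups were apart by more than the whole range of the vehicle tumors (log2 fold change 2.32, SE 0.31, edgeR adjusted p = 3.46e-05), and 25.1% of genes were higher in every treated tumor. Ogn measured 90.3, 20.9, 7.85 and 10.3 CPM in treated tumors and 6.77, 1.55 and 5.42 CPM in controls. No treated tumor lay among the controls, but treated replicate 1 was far above the other three, and the log2 fold change was 2.83 (SE 0.75, adjusted p = 0.00518).

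Prelp measured 200, 177, 104 and 121 CPM in treated tumors of TP2 and 48.9, 11.2 and 69.7 CPM in controls (log2 fold change 1.80, SE 0.42, edgeR adjusted p = 0.00224). Its groups did not overlap either. Lum measured 159, 82.3, 34.1 and 34.9 CPM against 31.2, 7.94 and 31.1 CPM (log2 fold change 1.73, SE 0.55, adjusted p = 0.0147). Treated replicates 3 and 4 lay just above the higher controls, and the call was lost without treated replicate 1 (1.09, adjusted p = 0.0583) or without control replicate 2 (adjusted p = 0.0589). Vcan measured 121, 159, 127 and 102 CPM in treated tumors and 159, 142 and 84.5 CPM in controls, so that the treated tumors lay inside the control range (log2 fold change -0.03, SE 0.29, adjusted p = 0.94). Fmod (0.95, SE 0.48) and Has2 (-1.10, SE 0.63) were not called, but were without control replicate 3 (1.71, adjusted p = 0.0101, and -1.59, adjusted p = 0.0269).

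Control replicate 2 of TP2 was the lowest of the 3 controls for all SLRPs other than Dcn and the highest for Has2 (18.2 CPM, against 8.11 and 1.77 CPM). Its endothelial markers summed to 39.0 CPM, against 293 and 254 CPM in the other two controls. Adipocyte markers summed to 1001, 184, 91.2 and 124 CPM in the treated tumors in replicate order and to 7.32, 1.06 and 9.20 CPM in controls, with 6 of 6 called higher. Treated replicate 1 was thus highest for adipocyte markers, Lum, Ogn, Prelp, Dcn, Aspn and Bgn. Fibroblast markers summed to 6198 to 8839 CPM against 4110 to 6905 CPM, with 4 of 9 called higher, and the part of these cells was not tested. The 7SL share was 9.38% to 26.5% in treated tumors and 2.91% to 14.1% in controls. Dcn was not called at TP2 (log2 fold change 0.64, SE 0.38, edgeR adjusted p = 0.152). With that share as a covariate it was (1.21, edgeR adjusted p = 0.0124).

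**Figure D2:**
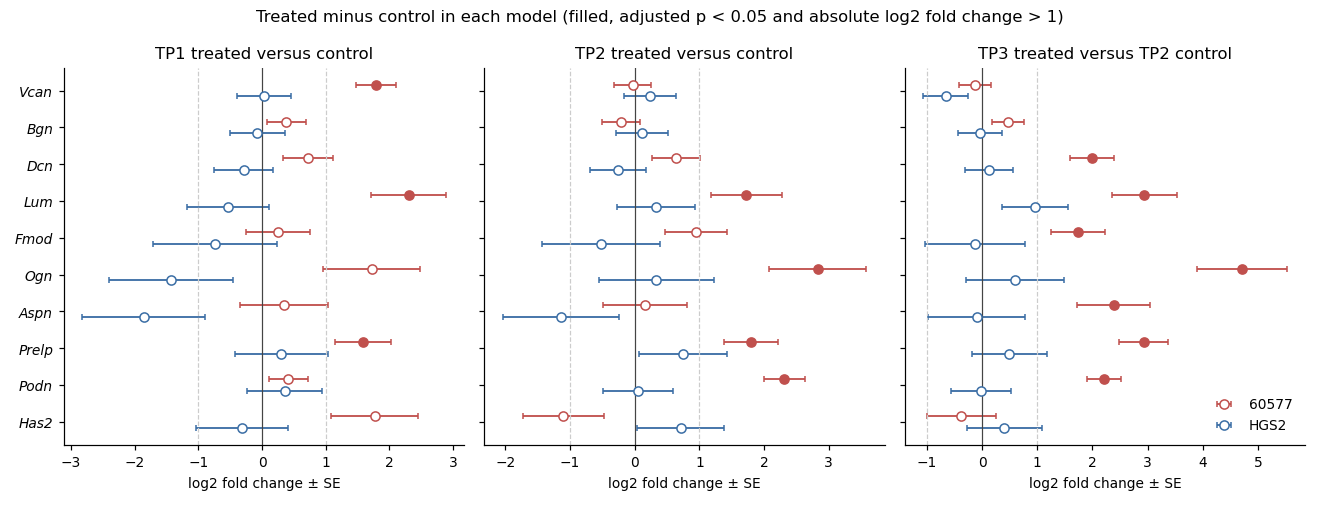
Log2 fold change of each gene, treated against control tumors, at TP1, TP2 and TP3 (TP3 against TP2 controls), 60577 in red and HGS2 in blue, with bars of 1 SE and filled points for called genes. The filled points are all 60577: 3 genes at TP1, 4 at TP2 and 7 at TP3, up to 4.70 for Ogn.

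At TP3, all 8 SLRPs but Bgn were higher in treated 60577 tumors than in TP2 controls, while Vcan and Has2 were not called. Ogn was 26-fold higher, Lum 7.67-fold, Prelp 7.63-fold, Aspn 5.21-fold, Podn 4.63-fold, Dcn 3.99-fold and Fmod 3.34-fold. The 7 called genes stood beside 14.2% of 16241 genes called higher (24.4% in either direction), and the median of the 10 genes was 2.10 against -0.00 for all genes. In each of the 7 every treated tumor lay above every control, as it did in 28.2% of genes.

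Among class I SLRPs, Dcn, which binds collagen and transforming growth factor beta, measured 1955, 1645, 2045 and 2448 CPM in the treated tumors and 467, 578 and 482 CPM in controls. The lowest treated tumor was far above the highest control (log2 fold change 2.00, SE 0.40, edgeR adjusted p = 0.000647). Aspn, a relative of decorin with an aspartate-rich end, measured 6.25, 11.4, 7.09 and 8.74 CPM against 2.91, 0.434 and 1.52 CPM (2.38, SE 0.66, adjusted p = 0.00744). Every treated tumor lay above every control here too. Bgn, the closest relative of decorin, measured 967, 1365, 1353 and 915 CPM against 934, 479 and 1097 CPM, groups that overlap (0.47, SE 0.30, adjusted p = 0.197).

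Of class II, Lum measured 156, 184, 169 and 203 CPM in TP3 treated tumors against 31.2, 7.94 and 31.1 CPM (log2 fold change 2.94, SE 0.58, edgeR adjusted p = 0.000661). Prelp measured 339, 306, 370 and 291 CPM against 48.9, 11.2 and 69.7 CPM (2.93, SE 0.44, adjusted p = 7.08e-05). The treated tumors of both genes lay within a narrow range, well above the controls. Fmod, which binds the same collagen site as lumican, measured 196, 215, 267 and 176 CPM against 65.1, 11.1 and 118 CPM (1.74, SE 0.50, adjusted p = 0.00847). Its control replicate 2 was the low one, and the call missed the threshold when all 10 tumor groups were fitted together (adjusted p = 0.0823) or the compared groups alone (adjusted p = 0.0546).

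Ogn of class III measured 91.7, 146, 111 and 123 CPM in TP3 treated tumors against 6.77, 1.55 and 5.42 CPM in controls (log2 fold change 4.70, SE 0.82, edgeR adjusted p = 0.000228). Podn of class V measured 98.3, 80.5, 87.5 and 119 CPM against 22.9, 11.02 and 29.0 CPM (2.21, SE 0.31, adjusted p = 3.66e-05). Both were far above every control. Vcan measured 108, 124, 125 and 110 CPM against 159, 142 and 84.5 CPM (-0.13, SE 0.29, adjusted p = 0.725) and Has2 7.48, 10.3, 5.10 and 5.97 CPM against 8.11, 18.2 and 1.77 CPM (-0.38, SE 0.62, adjusted p = 0.637). For both genes the treated tumors lay inside the range of the controls.

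Beside these values, adipocyte markers summed to 1628 to 2239 CPM in TP3 treated tumors and 1.06 to 9.20 CPM in TP2 controls, with 6 of 6 called higher. Fibroblast markers summed to 5352 to 6392 CPM against 4110 to 6905 CPM, ranges that overlap, with 5 of 9 called higher and Cthrc1, a marker of matrix-producing fibroblasts, called lower (-1.03). Dpt and Pi16, marker genes of adventitial fibroblasts, rose by 4.71 and 2.36. Mural (vessel wall) markers summed to 374 to 529 CPM against 65.6 to 263 CPM, and mesothelial markers to 401.5 to 813 CPM against 1501 to 2128 CPM. Sums of macrophage, T cell and B cell markers were higher in every treated tumor than in every control. Those of tumor epithelial, neutrophil and dividing cell markers were lower. The part of adipose tissue, of these fibroblasts and of the other cells in the SLRP values was not tested.

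Among treated 60577 tumors, Vcan and Has2 fell and Podn rose from TP1 to TP2. Vcan was 3.78-fold lower at TP2 (log2 fold change -1.92, SE 0.29, edgeR adjusted p = 0.00247) and Has2 5.37-fold lower (-2.43, SE 0.64, adjusted p = 0.0197), with every TP2 tumor below every TP1 tumor for both, as in 13.4% of genes. Podn was 2.66-fold higher (1.41, SE 0.30, adjusted p = 0.00853). The 3 called genes stood beside 6.02% of genes called in either direction, and the Has2 and Podn calls were lost with all 10 tumor groups fitted together (adjusted p 0.05 and 0.072). The Has2 call was also lost without treated replicate 1 or 3 of TP1 or 3 or 4 of TP2 (-1.75 to -2.49, adjusted p 0.052 to 0.0942), and Bgn was called without TP2 treated replicate 1 (-1.05, adjusted p = 0.0163). Between the vehicle controls of TP1 and TP2, edgeR called 0 of 16241 genes (1501 had an unadjusted p under 0.05, DESeq2 called 70 and limma-voom 0), and the 10 genes lay between -0.56 and 0.45.

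From TP2 to TP3, treated tumors gained Dcn (2.56-fold), Ogn (3.67-fold), Aspn (4.67-fold) and Prelp (2.19-fold), beside 7.87% of genes called in either direction. Their log2 fold changes were 1.35 (SE 0.35), 1.87 (SE 0.63), 2.22 (SE 0.59) and 1.13 (SE 0.37), with edgeR adjusted p of 0.011, 0.033, 0.0128 and 0.0302. All TP3 tumors lay above all TP2 tumors in each of the 4 genes, as in 14.6% of genes. Vcan and Podn differed by -0.10 each and were not called. The 7SL share was 9.38% to 26.5% at TP2 and 1.93% to 5.89% at TP3, and with that share as a covariate none of the 4 was called (Dcn 0.51, Ogn 0.75, Prelp 0.81 and Aspn 1.5, adjusted p 0.462 to 0.711). The shares do not overlap, so that 7SL share and time point are hard to tell apart in that fit. The Ogn call was also lost when replicate 2, 3 or 4 of either group was left out (1.55 to 1.90, adjusted p 0.0544 to 0.0905), the Prelp call without TP2 replicate 3 or 4 or TP3 replicate 1, 2 or 3 (0.99 to 1.16, adjusted p 0.0525 to 0.0956), and Lum (1.21, SE 0.49, adjusted p = 0.0643) was called without TP2 treated replicate 1 (1.87, adjusted p = 0.00463) or TP2 control replicate 2 (adjusted p = 0.0374). Both treated groups also enter the comparisons with controls above.

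Of the 7 genes that rose at TP3, 6 (all but Podn) lie next to another member or in a cluster of related genes. Ogn (chromosome 13, 49608046 to 49624501, plus strand, GRCm38) and Aspn (49544443 to 49567565, plus strand) are neighbors with Omd and Ecm2, which also encode leucine-rich repeat proteins. Ecm2 rose by 3.34 (SE 0.56) and Omd by 3.41 (SE 0.79) on the log2 scale at TP3. All 4 genes of the cluster were thus called, beside 14.2% of all genes called higher. The calls of members given by position here are those already counted above. Dcn (chromosome 10, 97479609 to 97518143, plus strand) and Lum (97565128 to 97572703, plus strand) are adjacent, and both were called. Prelp (chromosome 1, 133910304 to 133921414, minus strand) and Fmod (134037254 to 134048277, plus strand) are adjacent, with Optc on the other side of Prelp, and both were called. Podn (chromosome 4, 108014791 to 108096445, minus strand), Bgn (chromosome X, 73483602 to 73495933, plus strand), Has2 (chromosome 15, 56665627 to 56694539, minus strand) and Vcan (chromosome 13, 89655312 to 89742509, minus strand) stand apart from other members. Kera, Optc and Hapln1, the neighbors of Lum, Prelp and Vcan, did not pass the filter on low counts. Exons of Prelp (9.68%), Has2 (4.3%) and Aspn (0.3%) overlap genes of the other strand, and no member shares exons with a gene of its own strand.

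Promoter sequences are shown for 3 genes that rose at TP3 (Ogn, Aspn and Prelp) and for Vcan, which was called at TP1. Each is the 250 bases before the RefSeq transcription start (build GRCm38.p6), 5′ to 3′ on the gene's strand, at chr13:49607765-49608014 (plus) for Ogn, chr13:49544193-49544442 (plus) for Aspn, chr1:133921402-133921651 (minus) for Prelp and chr13:89742513-89742762 (minus) for Vcan. Capitals mark matches, on either strand, to the TATA box, CCAAT box, GC box, AP-1 and TEAD motifs, whose letters follow the sequences.
Ogn: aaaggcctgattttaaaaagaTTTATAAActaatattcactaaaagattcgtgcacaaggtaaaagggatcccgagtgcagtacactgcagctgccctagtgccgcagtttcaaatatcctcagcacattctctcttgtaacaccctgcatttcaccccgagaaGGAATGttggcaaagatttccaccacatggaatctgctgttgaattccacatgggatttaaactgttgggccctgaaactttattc
Aspn: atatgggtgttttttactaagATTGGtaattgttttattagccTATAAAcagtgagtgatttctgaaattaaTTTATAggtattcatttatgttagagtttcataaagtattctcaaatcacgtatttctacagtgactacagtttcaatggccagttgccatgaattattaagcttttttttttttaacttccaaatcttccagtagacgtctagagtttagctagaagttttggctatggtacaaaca
Prelp: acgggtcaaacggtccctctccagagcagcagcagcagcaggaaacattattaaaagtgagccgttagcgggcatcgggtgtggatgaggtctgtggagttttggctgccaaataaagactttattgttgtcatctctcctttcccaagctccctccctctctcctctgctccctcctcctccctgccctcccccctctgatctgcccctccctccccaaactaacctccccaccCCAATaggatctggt
Vcan: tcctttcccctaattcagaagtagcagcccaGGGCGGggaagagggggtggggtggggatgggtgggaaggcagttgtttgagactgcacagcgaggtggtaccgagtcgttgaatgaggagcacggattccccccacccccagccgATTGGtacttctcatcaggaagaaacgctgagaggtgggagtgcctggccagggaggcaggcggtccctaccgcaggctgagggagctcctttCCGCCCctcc

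The 4 windows differ in composition: GC content was 42.0% in Ogn, 30.0% in Aspn, 55.6% in Prelp and 62.4% in Vcan, against a median of 52.4% over 32851 promoter windows. Ogn holds 2 overlapping TATA matches and 1 TEAD match, Aspn 2 TATA matches and 1 CCAAT match, Prelp 1 CCAAT match and Vcan 2 GC boxes and 1 CCAAT match. Of all windows, 12.4% held the TATA box, searched as TATAAA. The CCAAT box, whose letters are its name, was held by 33.8% and the GC box, searched as GGGCGG, by 32.7%. The AP-1 motif, searched as TGANTCA, was held by 6.7% and the TEAD motif, searched as GGAATG, by 12.6%. None of the 4 windows holds the AP-1 letters. Windows were found for 7 of the 10 genes (Dcn, Lum and Has2 had no entry), and a match describes letters only.

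In HGS2 tumors, none of the 10 genes was called at any time point. By edgeR 0 of 16241 genes (0%) were called at TP1, TP2 or TP3, with 413, 1233 and 406 at an unadjusted p under 0.05, 1, 8 and 5 called by DESeq2 and 0 called by limma-voom. No member had an unadjusted p under 0.05. The median log2 fold changes of the 10 genes were -0.30, 0.18 and 0.06, against 0.00, -0.02 and 0.00 for all genes.

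Vcan in HGS2 measured 1099, 658 and 537 CPM in treated tumors of TP1 and 1043, 850 and 396 CPM in controls. At TP2 it measured 918, 904 and 794 CPM in treated tumors and 1197, 528, 418 and 783 CPM in controls. At TP2 the treated tumors lay inside the control range, and at TP1 one treated tumor (1099 CPM) lay above it. At TP3 it measured 661, 392 and 342 CPM, and 195 CPM in the tumor left out of the fits, with 2 of the 3 fitted tumors below every TP2 control. Has2 ranged from 2.39 to 53.1 CPM over the 17 HGS2 tumors, with HGS2 TP1 control replicate 1 the highest.

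Lum at TP3 measured 487, 512 and 430 CPM in the 3 fitted HGS2 tumors (552 CPM in the one left out) and 242, 232, 86.4 and 411 CPM in TP2 controls. The groups did not overlap, which 1.23% of genes showed in this direction, but the log2 fold change of 0.97 (SE 0.60) was not called (edgeR adjusted p = 1). Dcn at TP3 measured 797, 731 and 1264 CPM (1123 CPM in the one left out) against 1050, 890, 518 and 950 CPM. Those groups overlap, as they do for the other SLRPs at TP3 apart from Lum. The SLRPs varied widely between HGS2 controls: at TP1 Fmod measured 14.7, 567 and 649 CPM and Ogn 14.4, 126 and 300 CPM, with control replicate 1 the low one for Bgn's class I relatives Dcn (399 CPM) and Aspn (22.4 CPM) too.

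The responses of the models were compared by their difference, HGS2 minus 60577, in 1 fit of all 10 tumor groups. At TP1 no member was called, although 3 had an unadjusted p under 0.05 and edgeR called 235 genes (1.45%), DESeq2 721 and limma-voom 214. The Vcan difference was -1.78 (SE 0.55, edgeR adjusted p = 0.0793), the Lum difference -2.83 (SE 0.90, adjusted p = 0.0877) and the Ogn difference -3.15 (SE 1.29, adjusted p = 0.182). The Vcan difference was called by DESeq2 (adjusted p = 0.0265) and without 60577 treated replicate 2 (-2.07) or HGS2 control replicate 3 (-2.11), and the Lum difference by DESeq2 and without HGS2 control replicate 1 (-3.33). At TP2 only Podn was called (-2.26, SE 0.65, adjusted p = 0.0289), beside 6.90% of genes. Its call was lost with a replicate block (-1.81, adjusted p = 0.0724), without the acinar-rich tumors (-1.62, adjusted p = 0.168), and without 60577 TP2 control replicate 2 or treated replicate 4 or HGS2 TP2 control replicate 2 or 4 or treated replicate 1 (-1.95 to -2.10, adjusted p 0.0533 to 0.101).

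At TP3, the change from TP2 controls was smaller in HGS2 than in 60577 for 4 SLRPs, beside 12.4% of genes called. The difference was -4.08 (SE 1.25, edgeR adjusted p = 0.0246) for Ogn, -2.42 (SE 0.84, adjusted p = 0.0458) for Prelp, -2.21 (SE 0.64, adjusted p = 0.019) for Podn and -1.86 (SE 0.59, adjusted p = 0.0302) for Dcn. For Lum it was -1.95 (SE 0.85, adjusted p = 0.108) and for Aspn -2.46 (SE 1.15, adjusted p = 0.136). Without the acinar-rich tumors Dcn (-1.54, adjusted p = 0.158), Podn (-1.55, adjusted p = 0.167) and Prelp (-1.76, adjusted p = 0.24) were no longer called, and without 60577 TP2 control replicate 2 or HGS2 TP3 treated replicate 3 none of the 4 was (-1.72 to -3.67, adjusted p 0.0532 to 0.125). The Ogn call was also lost without HGS2 TP2 control replicate 1 (-3.56, adjusted p = 0.0509), and the Dcn and Prelp calls, close to the threshold, with many other single tumors left out (adjusted p 0.0501 to 0.106). Counting every alternative, the Prelp call was lost in 25 and the Dcn call in 11. With all 17 HGS2 tumors the Prelp difference was -2.09 (adjusted p = 0.0887). All 6 adipocyte markers were also called lower in the TP3 difference fitted without HGS2 TP3 treated replicate 1, and their part was not tested. In that replicate those markers summed to 1540 CPM, against 25.8 to 156 CPM in the fitted HGS2 TP3 tumors.

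Without chemotherapy the models differed too: in controls, HGS2 tumors held more Vcan, Bgn, Lum, Fmod, Ogn, Aspn and Prelp mRNA than 60577 tumors. Aspn was 64.3-fold higher, Ogn 21.7-fold, Lum 16-fold, Vcan 5.6-fold, Fmod 4.26-fold, Bgn 2.9-fold and Prelp 2.14-fold. These 7 called genes of 10 stood beside 13.2% of 16241 genes called higher (22.0% in either direction), with a median of 1.81 for the 10 genes and 0.05 for all. Fibroblast markers moved the same way, with 8 of 9 called higher and sums of 21090 to 104500 CPM in the 7 HGS2 controls and 4078 to 7082 CPM in the 6 controls of 60577, and their part was not tested.

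Vcan ranged from 396 to 1197 CPM in HGS2 controls and from 84.5 to 180 CPM in 60577 controls (log2 fold change 2.48, SE 0.28, edgeR adjusted p = 9.21e-08). Aspn ranged from 4.90 to 249 CPM against 0.434 to 2.91 CPM (6.01, SE 0.72, adjusted p = 2.13e-07) and Lum from 85.9 to 689 CPM against 7.94 to 31.2 CPM (4.00, SE 0.49, adjusted p = 3.25e-07). The models did not overlap for Vcan, Aspn, Lum, Ogn or Bgn, as in 10.9% of genes. Bgn ranged from 1564 to 4524 CPM against 479 to 1097 CPM (1.53, SE 0.27, adjusted p = 3.82e-05). Fmod and Prelp ranges did overlap, with log2 fold changes of 2.09 (SE 0.57) and 1.10 (SE 0.43). The Fmod call was lost by limma-voom (1.51, adjusted p = 0.055). Dcn (0.94, SE 0.31, adjusted p = 0.012) stayed under the fold limit, and Podn (0.27, SE 0.33) and Has2 (1.19, SE 0.52, adjusted p = 0.0566) were not called. The Prelp call was lost in 14 alternatives, furthest with TP2 controls only (0.79, edgeR adjusted p = 0.326) and without acinar-rich tumors (0.79, edgeR adjusted p = 0.23). It was also lost without any single TP1 control or TP2 control replicate 2 of 60577, and without HGS2 TP1 control replicate 2 or 3 or TP2 control replicate 1 or 4 (0.86 to 1.12, adjusted p 0.0513 to 0.111). Has2 was called in 10 alternatives, for example at 1.65 (adjusted p = 0.0157) without TP2 control replicate 2 of 60577.

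**Figure D3:**
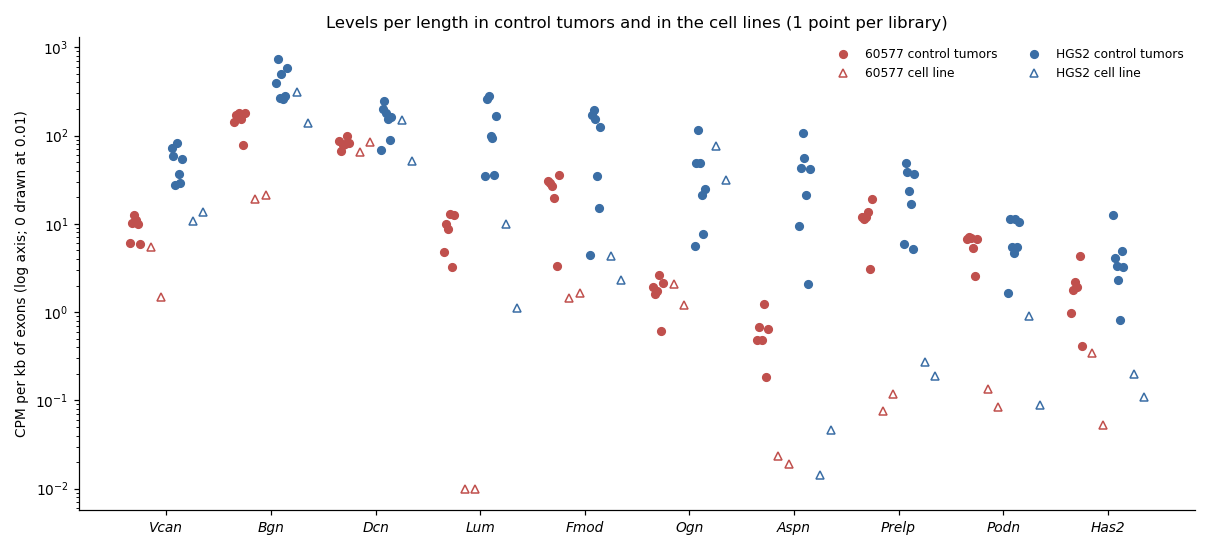
Level per length (CPM per kb of exons, log axis) of the 10 genes in control tumors (circles) and cell lines (triangles) of both models, with 0 drawn at 0.01. In both models Bgn is the highest of the 10 in control tumors, at a mean of 150 CPM per kb in 60577 and 430 CPM per kb in HGS2.

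Per kilobase of exons, Bgn led in 60577 controls at 150 ± 38.0 CPM per kb (SD, n = 6), followed by Dcn at 82.3 ± 10.5 and Fmod at 24.2 ± 11.4 CPM per kb. The Bgn and Dcn ranges overlapped, and Dcn did not overlap Fmod. Prelp (11.8 ± 5.20), Vcan (9.23 ± 2.68), Lum (8.70 ± 3.98) and Podn (5.90 ± 1.74) followed with ranges that overlap their neighbors, and Has2 (1.93 ± 1.34), Ogn (1.77 ± 0.67) and Aspn (0.620 ± 0.349) stood last. In HGS2 controls Bgn led at 430 ± 186 CPM per kb (n = 7), with no overlap with Dcn at 157 ± 61.2. Lum (139 ± 101), Fmod (100.1 ± 80.2), Vcan (51.5 ± 21.5), Aspn (39.6 ± 34.8), Ogn (39.2 ± 38.5), Prelp (25.1 ± 16.9), Podn (7.19 ± 3.83) and Has2 (4.47 ± 3.78) followed, each overlapping the next. Aspn thus stood sixth per kilobase in HGS2 and last in 60577.

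In monoculture, where no host stroma is present, HGS2 cells held more Bgn, Lum and Ogn mRNA than 60577 cells. Bgn measured 1878 and 853 CPM in HGS2 cells and 117 and 131 CPM in 60577 cells (11-fold, log2 fold change 3.46, SE 0.45, edgeR adjusted p = 0.00989). Ogn measured 195 and 80.2 CPM against 5.32 and 3.10 CPM (32.8-fold, 5.04, SE 0.57, adjusted p = 0.00701). Neither gene's libraries overlapped between the lines, and 32.1% of genes were likewise higher in both HGS2 libraries. Lum gave 721 and 101 counts (24.3 and 2.72 CPM) in HGS2 cells and 0 counts in both 60577 libraries, which made it at least 164-fold higher on the mean of HGS2, and at least 33.1-fold for the lower HGS2 library, taking 3 counts per library as the limit that a count of 0 allows. The 3 called genes of 8 tested stood beside 7.55% of 13742 genes called higher (15.9% in either direction). The Bgn and Lum calls were lost without either 60577 library (adjusted p 0.0656 to 0.0874), the count was 1 without replicate 2 of that line, and it was 6 without HGS2 replicate 2 or with no filter on low counts.

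The other members were present in both lines or nearly absent from them. Vcan measured 155 and 194 CPM in HGS2 cells and 79.6 and 21.6 CPM in 60577 cells (log2 fold change 1.79, SE 0.60, edgeR adjusted p = 0.0978), and Dcn 875 and 303 CPM against 377 and 494 CPM. For Vcan both HGS2 libraries lay above both 60577 libraries, as in 32.1% of genes. By DESeq2, which the study used for the lines, Vcan was called (1.805, adjusted p = 0.00833). It was also called with a replicate block (2.06, edgeR adjusted p = 0.0285) or no filter on low counts (1.82, edgeR adjusted p = 1.52e-10). Without 60577 replicate 1 its log2 fold change was 3.01. Aspn gave 1 and 4 counts in HGS2 cells and 2 and 2 counts in 60577 cells, and Prelp stayed under 1 CPM in all 4 libraries. Has2 stayed under 1.46 CPM. Aspn and Prelp, at 4.90 to 249 and 18.8 to 176 CPM in HGS2 control tumors, were thus near 0 in the cultured cells. Tumors and lines come from separate tables, so that tissue, culture and batch cannot be told apart, and no test was made between them. Fibroblast markers summed to 10870 and 20190 CPM in HGS2 cells and to 1493 and 368 CPM in 60577 cells, so that the HGS2 line itself carries those markers.

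Genes that act on the same matrix were taken from 5 lists, of which 51 genes were tested in tumors. Of 20 genes of chondroitin and dermatan sulfate synthesis, 4, 5 and 5 were called higher in 60577 at TP1, TP2 and TP3 and 0 lower, where all genes gave 9.65%, 14.8% and 14.2% higher and 5.96%, 9.61% and 10.2% lower. With no limit on the fold change, 11, 9 and 9 of the 20 had an adjusted p under 0.05 in the higher direction and 1, 5 and 6 in the lower, beside 33.3%, 58.4% and 51.4% of all genes in either direction. The median of the list was 0.74, 0.27 and -0.02, against -0.00, 0.03 and -0.00 for all genes. The epimerases Dse (1.42, 1.33 and 1.86) and Dsel (1.21, 1.48 and 1.80), which turn chondroitin into dermatan sulfate, the uronyl sulfotransferase Ust (1.45, 1.95 and 1.34) and the chondroitin sulfotransferase Chst3 (1.57, 3.66 and 3.60) were called at all 3 times. Dse had an SE of 0.17 to 0.18 in each (edgeR adjusted p of 6.77e-05, 2.83e-05 and 1.17e-06). In the difference between models, HGS2 minus 60577, Dse was called lower at TP1 (-1.47, adjusted p = 0.00655) and TP3 (-1.94), and Dsel at TP2 (-1.57) and TP3 (-1.81).

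Of 14 hyaluronan genes, 2, 2 and 3 were called higher and 1, 4 and 4 lower in 60577 at TP1, TP2 and TP3, where 15.6%, 24.4% and 24.4% of all genes were called in either direction. Hmmr, a hyaluronan-binding protein of the mitotic spindle, fell at each time (-2.05, -2.45 and -3.10). Tnfaip6, which transfers heavy chains to hyaluronan, fell at TP2 (-2.83) and TP3 (-2.51), as did the synthase Has1 (-1.76 and -1.82). Itih5, of the heavy chain family, rose at TP2 (2.31) and TP3 (4.45), and Lyve1, the hyaluronan receptor of lymphatic vessels and some macrophages, rose at TP3 (2.72, SE 0.68). At TP1 the hyaluronidase Hyal1 (1.79) and the scavenger receptor Stab1 (1.28) rose.

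Of 6 ADAMTS proteases that cleave versican and its relatives, 2, 3 and 2 were called higher and 1, 2 and 2 lower, beside the same 15.6%, 24.4% and 24.4% of all genes, which also stand beside the 2 lists that follow. Adamts5 (1.82, 1.54 and 3.44) and Adamts15 (2.95, 1.44 and 1.59) rose at TP1, TP2 and TP3. Adamts4 (-1.76 and -2.46) and Adamts9 (-1.38 and -2.15) fell at TP2 and TP3. Adamts20 was called in opposite directions, lower at TP1 (-1.05) and higher at TP2 (1.21). Of 6 other SLRPs and versican relatives tested, 1, 2 and 3 were called higher and 0 lower, with Podnl1, a relative of podocan, called at all 3 times (1.58, 2.36 and 1.66). Of 5 keratan sulfate genes, 0, 0 and 1 were called higher and 0, 1 and 2 lower, with the sulfotransferase Chst1 at 2.31 at TP3. In HGS2 none of the 51 was called at TP1, TP2 or TP3, where 0 of all 16241 genes were called.

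**Figure D4:**
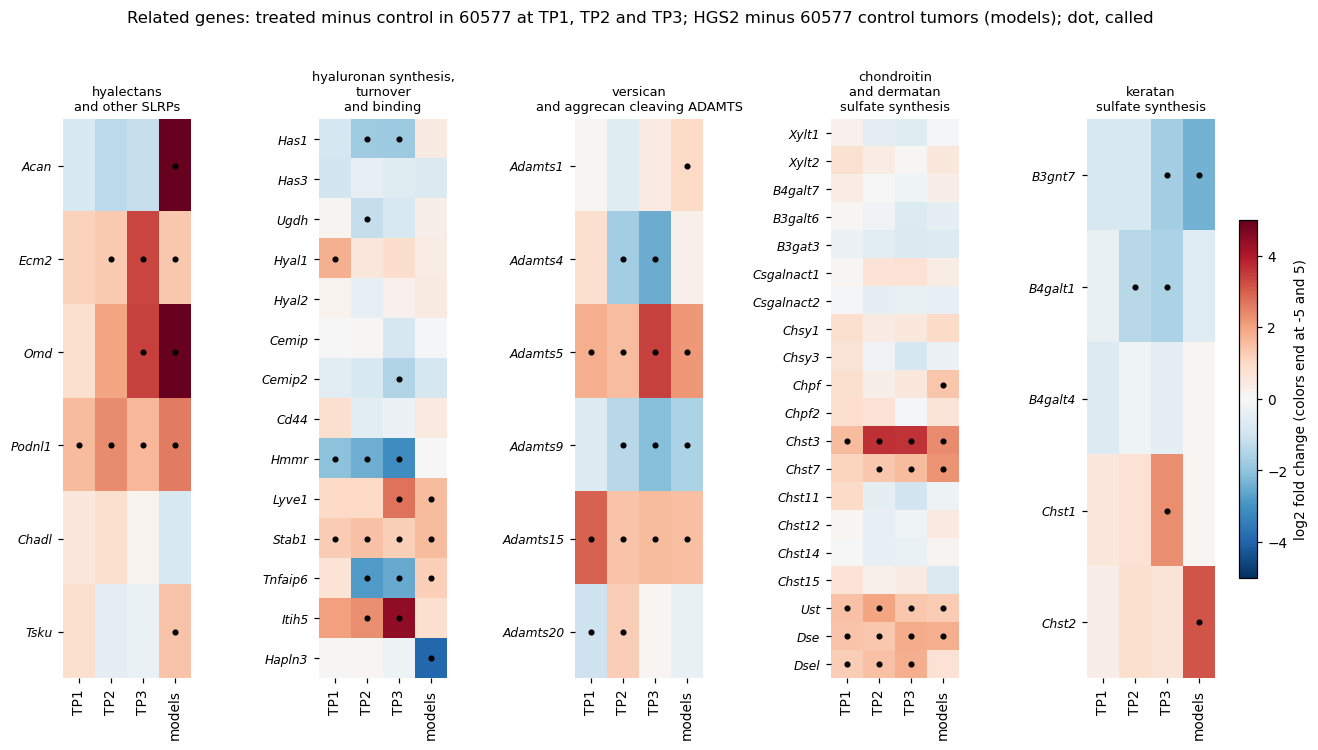
Log2 fold change (color) of the 51 related genes tested, in rows by list, for 60577 at TP1, TP2 and TP3 and for HGS2 against 60577 control tumors, with a dot on called genes. In the chondroitin and dermatan sulfate list the dots of the 60577 columns are on red cells only, 4, 5 and 5 of 20, while the hyaluronan and ADAMTS lists hold dots on both colors.

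Between control tumors, HGS2 was called higher than 60577 in 5 of the 6 other SLRPs and relatives, 5 of 20 chondroitin and dermatan sulfate genes, 3 of 14 hyaluronan genes, 3 of 6 ADAMTS genes and 1 of 5 keratan sulfate genes, and lower in 0, 0, 1, 1 and 1, where 13.2% of all genes were called higher and 8.81% lower. Acan, the cartilage relative of versican, had a log2 fold change of 6.49 and Omd of 5.70. Hapln3, a link protein of hyaluronan, was lower (-3.94). In the cell lines, 3 of 6, 1 of 18, 0 of 11, 3 of 6 and 1 of 5 genes of these lists were called higher in HGS2 and 0, 2, 1, 0 and 1 lower, where 7.55% of all genes were called higher and 8.38% lower.

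Across 33 tumors, after each group mean was subtracted, Vcan varied most closely with Copa (Pearson r 0.796, Spearman rho 0.793), Mdga1 (0.723, 0.737) and Pign (0.716, 0.647). Dcn varied with Rnase4 (0.900, 0.858), Pxmp4 (0.899, 0.868) and Selenop (0.897, 0.876), and Has2 with Midn (0.801, 0.749), Bcl3 (0.798, 0.789) and Eya3 (0.787, 0.770). These are descriptions over tumors whose cell makeup varied within groups too, as in the acinar markers of HGS2 TP2 controls (7.2 to 98870 CPM). The part of cell makeup and of library preparation in them was not tested. None of the nearest genes was a member of the set.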

How the data were processed

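Bulk RNA-seq was deposited for 34 omental tumors and 4 cell line libraries. Per the methods of the study, each tumor came from an individual mouse, RNA was depleted of ribosomal RNA, and strand-specific libraries were sequenced as paired ends, trimmed with Trim Galore (0.6.5), aligned with STAR (2.7.0f) to GRCm38 and counted per gene with RSEM. The authors deposited expected counts, which were rounded to whole numbers here; later normalization by the authors is not in these values. Genes with at least 1 CPM in 25% of the libraries of a table were kept (16241 in tumors, 13742 in cell lines). Each model's 5 tumor groups were fitted together with edgeR (4.0.16), using TMM scaling and the two-sided quasi-likelihood test with Benjamini-Hochberg adjustment over all kept genes. Differences between models, and between their controls, came from a fit of all 10 groups (33 tumors). Called genes had an adjusted p under 0.05 and an absolute log2 fold change over 1. SEs were derived from the F statistic. CPM between genes were divided by transcript length in kb. Replicates of a group differed by more than counting noise in all 44 pairs. The labels' replicate numbers were checked for pairing by the correlation of deviations from group means: between treated and control tumors of TP2, every same-numbered pair was over 0.1 in 60577 (0.114 to 0.144) and in HGS2 (0.138 to 0.296), and in no other comparison of treated with control tumors was every pair. Scripts were tested on simulated data. The members, lists and tests were chosen with earlier results of these data known. Related genes named in the text are at most the 4 called genes of a list with the largest change in a comparison, and nearest genes the 3 with the highest r. Alternatives were DESeq2 (1.42.0), limma-voom (3.58.1), other scaling, filters and groupings, a length and GC offset, a replicate block, leaving out each library, and, added after seeing the data, a 7SL share covariate and a fit without tumors rich in acinar RNA.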

Additional observations from a re-analysis of the deposited data

Results flagged for a closer look

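The differences of 4 members passed the test of the difference between models (HGS2 minus 60577, treated minus control, edgeR with all genes adjusted together). At TP3 against TP2 controls they were -4.082 for Ogn, -2.417 for Prelp, -2.207 for Podn and -1.863 for Dcn on the log2 scale, and at TP2 the Podn difference was -2.262. In each, every treated 60577 tumor lay above every 60577 control, as in 28.2% of genes at TP3 and 25.1% at TP2. The HGS2 groups overlapped, as they did for most genes. In HGS2, 1.23% of genes were higher and 1.83% lower in every treated tumor at TP3, and 6.39% and 6.74% at TP2. Model, host strain and tumor age cannot be told apart in these values. Dixon's test for a single tumor far from its group was made in 40 sets of 4 tumors, of which 0 passed, where chance alone gives about 1 in 20.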

How the results depend on the processing

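Counts of called members stayed within 1.5 times the reported ones under most alternatives. Comparisons within HGS2, where edgeR called 0 of 16241 genes, enter with 0 members on both sides, and a count that stays alike can hold other members. Signs were compared only for members called in the reported or the alternative fit, and none of these reversed. With the 7SL share as a covariate the count went from 3 to 5 in 60577 at TP1, from 3 to 1 between treated TP1 and TP2, from 4 to 0 between treated TP2 and TP3 and from 1 to 0 in the difference between models at TP2. With all 10 groups fitted together it was 1 between treated TP1 and TP2 and 2 between treated TP2 and TP3, and with the compared groups alone 1 between treated TP1 and TP2. In the difference between models at TP1 it was 2 instead of 0 by DESeq2 and 1 without acinar-rich tumors. That at TP2 fell to 0, and that at TP3 from 4 to 2, with no filter on low counts, and without acinar-rich tumors they were 0 and 1. In the cell lines no filter gave 6 instead of 3. The causes of these changes were not tested.

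Replicate numbers did not pair the tumors over the whole series: same-numbered tumors of different groups correlated at -0.488 to 0.367 (median 0.067, 16 of 36 pairs over 0.1), and 7 of 33 tumors were closest to their own number. At TP2 every same-numbered pair of a treated and a control tumor was over 0.1. Pairs of different numbers were not set beside them there, so that pairing at TP2 was not shown. A replicate block, alone or with a length and GC offset, gave 0 members instead of 1 in the difference at TP2 and 2 instead of 4 at TP3, and left the other counts within 1.5 times. At TP2 within each model it changed no call of a member.

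Leaving out 1 library at a time gave 3 to 4 members in 60577 at TP1, 3 to 6 at TP2 and 7 at TP3, 2 to 4 between treated TP1 and TP2, and 0 in all HGS2 comparisons. Between treated TP2 and TP3 it gave 2 (without TP2 treated replicate 3 or 4 or TP3 treated replicate 2 or 3) to 5. In the differences between models it gave 0 to 1 at TP1 (1 without 60577 treated replicate 2 or HGS2 control replicate 1 or 3), 0 to 1 at TP2 (tumors named above) and 0 to 4 at TP3, with 1 without HGS2 TP2 control replicate 1 and 2 without 60577 TP2 control replicate 1, 60577 TP3 treated replicate 4 or HGS2 TP3 treated replicate 2. Control tumors gave 6 to 8. The cell lines gave 1 (without 60577 replicate 2) to 6 (without HGS2 replicate 2), where the lone library is assumed to vary like the others. Low counts limit Aspn in 60577 tumors and in both lines.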
